A study of Homo sapiens with 7 samples.

Results

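Gene expression in a lipid-rich and in a plain albumin was compared in H1, an established line of human embryonic stem cells. The pair consists of the array labelled AlbuMAX and the array labelled Albumin, 2 of the 7 arrays in the series, chosen by the treatment label. A gene entered the comparison when its probe had a detection p-value under 0.01 on the brighter of these arrays, which held for 7431 of the 7982 genes measured anywhere in the series. Both cultures were grown on matrigel in E8, a defined stem cell medium with no albumin of its own, to which 1.6% AlbuMAX or 1% Albumin was added for 2 days. As in every culture of the series, cells had received 5 μM of the ROCK inhibitor Y27632 at passage, which was taken away after 24 hours. The other 5 arrays were E8 alone, CDL (1% of a lipid concentrate of defined make-up), hCDL (a lipid mixture made by the submitters, 0.1x in the treatment label and 0.01% in the sample title), 1 μM LPA (lysophosphatidic acid, 18:1), and 1 μM LPA with 1% Albumin.

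Each medium was measured on 1 array, so the pair has no replicates, no test was made, and differences are given as sizes. The dose of AlbuMAX was higher than that of Albumin, and the sources used here name neither the origin of the Albumin nor the chip on which each array lay. The lipid content, the dose, the albumin preparation, the single culture and the chip therefore cannot be told apart. At the same limit 35.4% of probes were above background on the AlbuMAX array and 37.2% on the Albumin array, with raw median intensities of 110.4 and 113.4 in a series range of 108.5 to 116.9. Of 11 markers of human embryonic stem cells, 6 had a named probe, and all 6 were above background on both arrays. SOX2 had no named probe, so its level was not read. Of 8 feeder or fibroblast markers 4 had a named probe, DCN, LUM, PDGFRB and THY1, and DCN and LUM were not above background on any array. The intensities of all 4 summed to 2806 in AlbuMAX and 2773 in Albumin. PDGFRB alone differed by 0.84 on the log2 scale and THY1 by -0.02. In bulk RNA fewer cells of a type and less RNA per cell cannot be told apart.

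Serum albumin carries fatty acids, lysophospholipids and other lipids in the blood, and AlbuMAX is a bovine albumin sold as lipid-rich. LPA is one of the lysophospholipids albumin carries. It acts on G protein-coupled receptors and, downstream of them, on the actin cytoskeleton, and the state of actin sets the activity of serum response factor (SRF) and of YAP and TEAD, which drive genes of the contractile apparatus. Cells also sense their lipids inside: when membrane sterol is ample, INSIG proteins hold the SREBP transcription factors in the endoplasmic reticulum and genes of cholesterol and fatty acid synthesis are less active.

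AlbuMAX was at least 2-fold higher than Albumin in 228 genes, 3.07% of those entered, and at least 2-fold lower in 75, or 1.01%. At 1.5-fold the numbers were 617 (8.3%) and 479 (6.45%). The higher genes included actin, annexin and caveolin genes, targets of p53 and antagonists of Nodal, and the lower genes included INSIG1 and ACSS2, of sterol and fatty acid metabolism. Levels below are log2 normalized intensities of 1 probe per gene, so they compare arrays and not genes, and a difference of 1 is 2-fold. Just outside the 2-fold limit lay NIBAN1 at 0.98 and PIR at -0.98, and just inside TRIM5 at 1.01 and EEIG2 at -1.02.

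Pairs of arrays that use neither of these media give a measure of how far single arrays lie apart. CDL was at least 2-fold above hCDL in 49 of 7352 genes (0.666%) and below in 16 (0.218%). CDL was that far above E8 in 38 of 7164 genes (0.53%) and below in 28 (0.391%), and hCDL above E8 in 18 of 7314 (0.246%) and below in 24 (0.328%). LPA lay above E8 in 150 of 7197 genes (2.08%) and below in 45 (0.625%). The SD of the log2 difference over genes was 0.50 for AlbuMAX minus Albumin, 0.42 for LPA minus E8, and 0.27 to 0.30 for the 3 pairs of E8, CDL and hCDL. The lipid-rich and the plain albumin thus lay farther apart than any of these 4 pairs by each of these measures.

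The balance of the directions moved with the scaling. Of the genes past 2-fold, 75.2% were higher in AlbuMAX. Leaving out the background correction gave 86 higher and 4 lower genes (95.6% higher), with a background offset of 50 there were 116 and 14 (89.2%), and the submitters' processed values gave 86 and 5 (94.5%). When each array was centred on its median, without quantile normalization, 176 were higher and 111 lower (61.3%). The median difference of all genes entered was -0.03, and with median centring it was -0.19, so differences under that setting are read relative to that shift. The 4 genes lower in AlbuMAX without background correction were GDF3, INSIG1, NPTX1 and PLA2G3.

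**Figure D1:**
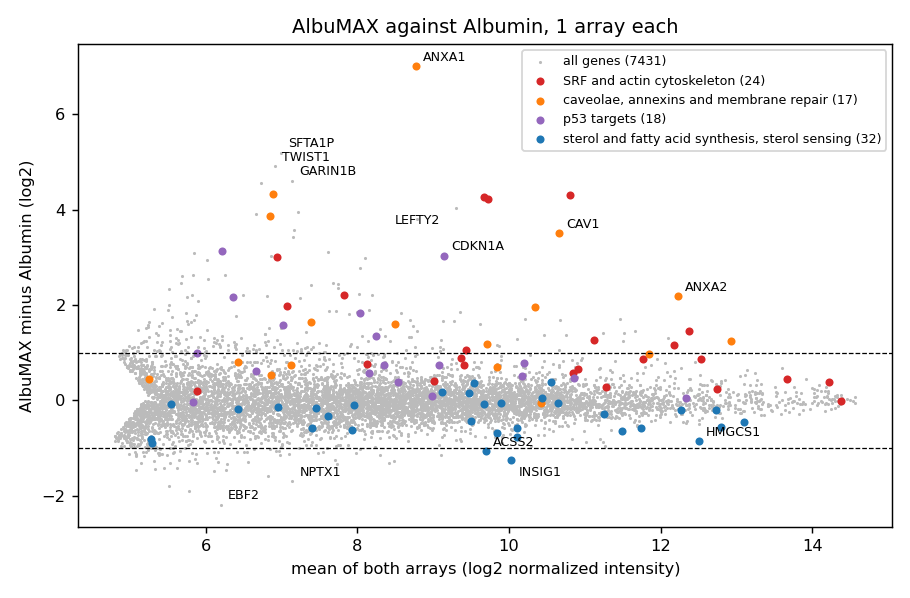
Each point is 1 of 7431 genes, with the mean log2 normalized intensity of both arrays on the x axis and AlbuMAX minus Albumin (log2) on the y axis. Colours mark 4 groups of genes and the dashed lines mark 2-fold; the actin, annexin and p53 genes reach far above the upper line, with ANXA1 at 7.01, while sterol and fatty acid genes lie mostly below 0.

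Dim genes weighed more among the differences. With genes split into 3 equal classes by signal, 121 of the 228 higher genes were in the dim class, 71 in the middle and 36 in the bright class, against 56, 15 and 4 of the 75 lower genes. In 78 of the higher genes the Albumin side was not above background, and in 40 of the lower genes the AlbuMAX side was not. For such genes only a bound is given, as at least N-fold, computed against the higher of the gene's own dim signal and the lowest signal above background on that array. Counted by the bound, 193 genes were higher and 43 lower by 2-fold. Counted the same way at 4-fold, 40 were higher and 0 lower.

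The muscle actins were among the largest differences. These are the actins of contractile filaments, and the CArG box, the sequence that SRF binds, lies in the promoters of several of them. The 250 bases before the gene start are printed 5′ to 3′ on the gene's strand for the 3 muscle actins with that box and the largest differences, and for TPM4, a tropomyosin with the box and a smaller difference, with each CArG box in capitals (RefSeq, GRCh38.p14). ACTA1 is at chr1:229434095-229434344 on the minus strand, ACTC1 at chr15:34795550-34795799 on the minus strand, ACTG2 at chr2:73892758-73893007 on the plus strand and TPM4 at chr19:16067288-16067537 on the plus strand.
ACTA1: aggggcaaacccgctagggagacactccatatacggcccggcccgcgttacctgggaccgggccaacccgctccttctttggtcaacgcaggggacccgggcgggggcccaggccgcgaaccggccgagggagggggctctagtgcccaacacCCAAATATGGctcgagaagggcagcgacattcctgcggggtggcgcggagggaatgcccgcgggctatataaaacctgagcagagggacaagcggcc
ACTC1: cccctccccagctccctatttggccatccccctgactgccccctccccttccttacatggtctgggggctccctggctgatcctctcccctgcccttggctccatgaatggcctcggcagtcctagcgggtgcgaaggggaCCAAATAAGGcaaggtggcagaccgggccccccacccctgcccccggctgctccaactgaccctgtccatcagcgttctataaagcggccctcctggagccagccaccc
ACTG2: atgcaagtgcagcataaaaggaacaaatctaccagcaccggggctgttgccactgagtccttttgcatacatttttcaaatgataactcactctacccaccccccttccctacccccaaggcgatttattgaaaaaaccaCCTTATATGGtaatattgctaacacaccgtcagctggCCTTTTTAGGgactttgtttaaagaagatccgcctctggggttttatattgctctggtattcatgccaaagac
TPM4: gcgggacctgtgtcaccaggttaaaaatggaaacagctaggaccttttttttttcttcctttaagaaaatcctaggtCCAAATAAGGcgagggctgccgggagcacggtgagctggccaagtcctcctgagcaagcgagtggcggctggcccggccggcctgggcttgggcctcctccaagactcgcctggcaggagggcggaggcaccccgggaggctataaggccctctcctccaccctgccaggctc

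The box began 97 bases before the gene start in ACTA1, 109 in ACTC1 and 173 in TPM4, and ACTG2 held 2 boxes, at 110 and 73 bases. Searched on both strands of the same 250 bases, the CArG box was present in 312 of 27305 promoters (1.14%), in 74 of 5992 promoters of genes entered (1.23%), in 8 of 173 of genes at least 2-fold higher in AlbuMAX (4.62%) and in 0 of 56 of those at least 2-fold lower. The 8 genes were ACTA1, ACTC1, ACTG2, CAPN2, GARIN1B, ISG15, MYL7 and NMRK2. In the list of SRF and actin genes it was present in 7 of 22 promoters (31.8%). That list was put together around SRF and the actin cytoskeleton, so this share is no independent result. It also holds other cytoskeleton genes, such as TUBB6 and MYL6. ACTA2, the muscle actin of smooth muscle named alpha, was not among the list genes with a match in these windows. A match is a description of the letters and not of binding. ACTG1, cytoplasmic gamma-actin, carries the box too and read 14.37 in AlbuMAX and 14.39 in Albumin.

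ACTA1, skeletal muscle alpha-actin, read 12.96 in AlbuMAX and 8.65 in Albumin. On the other arrays it read 8.66 in E8, 8.21 in CDL, 8.22 in hCDL, 12.37 in LPA and 13.46 in LPA + Albumin. The arrays fell into 3 high ones, AlbuMAX and both with LPA, and 4 low ones, with no overlap. The difference between AlbuMAX and Albumin was 4.31, or 19.8-fold. ACTC1, cardiac alpha-actin, showed the same arrangement at 11.81 in AlbuMAX against 7.53 in Albumin, a 19.4-fold difference, with 11.01 and 12.29 on the LPA arrays and 6.90 to 7.39 in E8, CDL and hCDL. ACTG2, smooth muscle gamma-actin, read 11.83 against 7.61, an 18.6-fold difference. The muscle actins are near-copies of each other, and whether a probe of one also reads another was not tested.

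Of 24 genes of the SRF and actin list that entered, 10 were at least 2-fold higher in AlbuMAX and 0 lower, and 23 lay above 0, with a median difference of 0.87 against -0.03 over all genes. ACTA2, smooth muscle alpha-actin, read 8.45 in AlbuMAX and 5.44 in Albumin, an 8.07-fold difference. The myosin light chain MYL9 was 4.64-fold higher, and CNN1, a calponin that binds actin filaments, was 3.96-fold higher. Members outside the 2-fold limit included MYH9, the heavy chain of nonmuscle myosin, at 0.86, the crosslinker ACTN1 at 0.87 and cytoplasmic beta-actin ACTB at 0.38. In 22 of the 24 genes AlbuMAX and both LPA arrays lay above the other 4 arrays. The list's median was 0.57 in LPA minus E8, -0.15 in CDL minus E8 and -0.04 in hCDL minus E8.

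**Figure D2:**
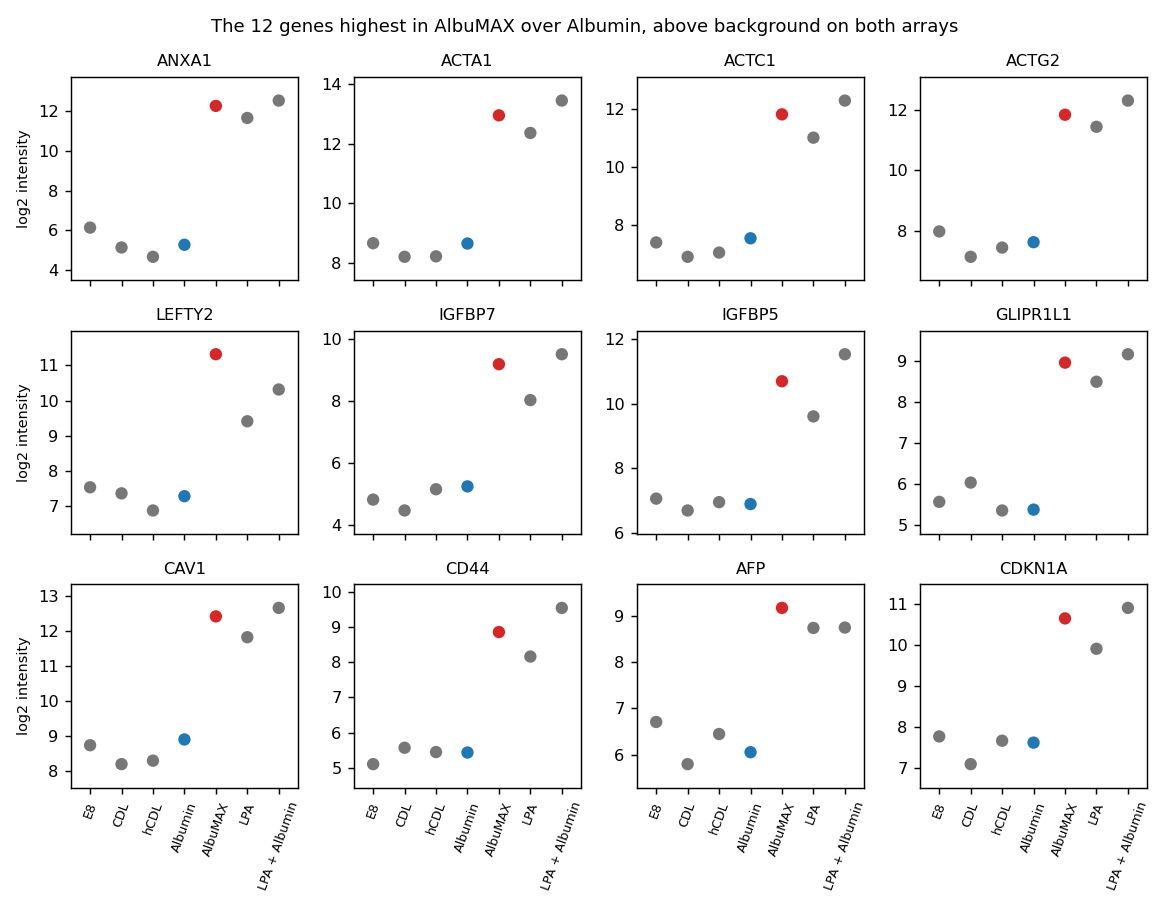
Log2 normalized intensity on each of the 7 arrays for the 12 genes with the highest AlbuMAX minus Albumin among those above background on both; each point is 1 array, AlbuMAX in red and Albumin in blue, and the y axes differ and do not start at 0. In every panel AlbuMAX lies with the LPA and LPA + Albumin arrays, and LEFTY2 and AFP are highest in AlbuMAX.

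Annexins, which bind phospholipid membranes when calcium rises, and caveolins, which form the membrane pits called caveolae, gave the single largest difference. ANXA1 read 12.28 in AlbuMAX and 5.27 in Albumin. It read 11.67 in LPA, 12.55 in LPA + Albumin, and 6.13, 5.13 and 4.66 in E8, CDL and hCDL, so that the high and low arrays were more than 5 units apart. The difference of 7.01 is 129-fold, from a signal in Albumin close to background. Without background correction and in the other settings of the values it ran from 5.30 to 7.11.

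Of 17 genes of the caveolae and annexin list 10 were at least 2-fold higher in AlbuMAX and 0 lower, with a median of 1.24. CAV1, the main coat protein of caveolae, read 12.41 in AlbuMAX, 8.91 in Albumin, 11.82 in LPA, 12.65 in LPA + Albumin, and 8.20 to 8.74 in the other 3 media, an 11.3-fold difference in the pair. CAV2, its partner, was above background on 4 of the 7 arrays and not on the Albumin array, and was at least 12.2-fold higher in AlbuMAX. These are values of the brightest probe of each gene. The differences of all probes ran from 2.60 to 3.50 for CAV1, from 1.74 to 3.87 for CAV2 and from 2.08 to 4.32 for MYOF. MYOF, which takes part in membrane repair, was at least 14.7-fold higher. ANXA2 and ANXA3 were 4.55-fold and 3.91-fold higher, and ANXA7 lay at -0.05. Probes of the ANXA2 pseudogenes ANXA2P1 and ANXA2P3 read 3.28-fold and at least 2.46-fold higher, and whether they share signal with ANXA2 was not tested.

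Targets of YAP and TEAD, which respond to cell shape and tension, all lay above 0. Of 11 that entered, 4 were at least 2-fold higher in AlbuMAX, with a median of 0.72. AXL, a receptor tyrosine kinase, read 9.11 in AlbuMAX and 7.20 in Albumin, or 3.75-fold higher. ANKRD1, a muscle ankyrin repeat protein, was above background only in AlbuMAX and on both LPA arrays, and was at least 3.33-fold higher than in Albumin. MYOF belongs to this list as well.

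Among genes of focal adhesions, which tie the actin cytoskeleton to the matrix, 6 of 21 were at least 2-fold higher and 0 lower, with a median of 0.56. CD44, the hyaluronan receptor, read 8.86 in AlbuMAX, 5.44 in Albumin, 8.16 in LPA and 9.54 in LPA + Albumin, a 10.7-fold difference in the pair. LMNA, the lamin of the nuclear envelope, was 2.75-fold higher and the integrin ITGA5, part of a fibronectin receptor, was 2.17-fold higher. ITGA6, part of a laminin receptor, lay at -0.09. Of 19 extracellular matrix genes 4 were at least 2-fold higher and 0 lower, with a median of 0.64. They were led by the collagen COL8A1, at least 10.9-fold higher, and the collagen crosslinker LOX, at least 2.31-fold. TIMP3, also among the 4, had a bound of 0.64 on the log2 scale, short of 2-fold. TNC was outside the limit at 0.81 on its brightest probe, but its other probe differed by 3.26. The laminins LAMA1, LAMB1 and LAMC1 lay at -0.07, 0.18 and 0.23.

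A broad list of genes linked to mesenchymal and neural crest cells included some of the largest bounds. Of 8 that entered 5 were at least 2-fold higher and 0 lower, with a median of 2.61. TWIST1, a transcription factor of those cells, read 9.37 in AlbuMAX, 8.66 in LPA and 10.07 in LPA + Albumin and was not above background on the other 4 arrays. It was at least 18.3-fold higher in AlbuMAX than in Albumin. NPPB, the precursor of brain natriuretic peptide, was at least 14.3-fold higher and CDH2, N-cadherin, 2.66-fold. Binding proteins of insulin-like growth factors were in this list too: IGFBP7 was 15.5-fold and IGFBP5 14.0-fold higher. The 5 higher genes were thus TWIST1, CDH2, NPPB, IGFBP5 and IGFBP7, and the median of 2.61 does not stand for every member. FOXD3, which neural crest and pluripotent cells share, lay at -0.25, PRRX2 at -0.07 and CDH11 at 0.10. ZEB2, PRRX1, FN1 and HAND2 were not above background on any array. The long noncoding RNA SFTA1P, in none of the lists, was at least 21.4-fold higher, and GARIN1B at least 19.2-fold.

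Of the antagonists of Nodal, LEFTY1 and LEFTY2 had AlbuMAX as their highest array. Nodal signalling holds human stem cells pluripotent and patterns the mesendoderm, and LEFTY1, LEFTY2 and CER1 are secreted inhibitors of it that its own targets include. LEFTY2 read 11.32 in AlbuMAX, 7.28 in Albumin, 9.41 in LPA, 10.31 in LPA + Albumin and 6.88 to 7.53 in E8, CDL and hCDL. AlbuMAX thus lay 1.00 above the next array and 4.03 above Albumin, or 16.4-fold. LEFTY1 read 11.06 in AlbuMAX and 9.35 in Albumin, a 3.27-fold difference, and lay 0.54 above the next array. CER1 was at least 2.42-fold higher than in Albumin and highest in LPA + Albumin. NODAL itself lay at 0.03. Of 11 genes in the Nodal and TGF-beta list 4 were at least 2-fold higher, 1 lower, and the median was 0.81.

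The lower member was GDF3, a ligand related to Nodal and expressed in pluripotent cells. It read 7.84 in AlbuMAX, 9.11 in Albumin, 8.25 in LPA, 7.67 in LPA + Albumin and 9.05 to 9.34 in E8, CDL and hCDL. The 3 arrays with AlbuMAX or LPA lay below the other 4, and the pair differed by -1.27. GDF3 was the 1 gene of 13 on the core pluripotency list past 2-fold, and the list's median was -0.12. POU5F1 read 10.37 in AlbuMAX and 10.84 in Albumin, and NANOG 10.07 and 10.31. LIN28A differed by -0.12, L1TD1 by -0.23, SALL4 by 0.08 and the podocalyxin gene PODXL by 0.64. AFP, alpha-fetoprotein of the yolk sac and fetal liver, read 9.17 in AlbuMAX, 6.05 in Albumin and 8.74 and 8.75 on the LPA arrays, or 8.68-fold higher. FOXA2, a factor of endoderm, was above background only in Albumin and at least 1.27-fold lower in AlbuMAX.

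Targets of p53, the transcription factor of the DNA damage response, lay above 0 in 17 of 18 cases. Of these 6 were at least 2-fold higher in AlbuMAX and 0 lower, with a median of 0.74. CDKN1A, the p21 inhibitor of cyclin-dependent kinases, read 10.66 in AlbuMAX, 7.62 in Albumin, 9.92 in LPA, 10.92 in LPA + Albumin and 7.10 to 7.77 in the other media, an 8.21-fold difference. GDF15, a stress cytokine, was at least 6.11-fold higher, the kinase PLK2 4.48-fold, ZMAT3 3.55-fold and GADD45A 2.55-fold. CCNG1 and SESN2 lay at 0.06 and -0.04. Of 29 genes of G2 and mitosis 0 passed 2-fold in either direction and 23 lay below 0, with a median of -0.16. TOP2A, the topoisomerase of mitotic chromosomes, differed by -0.40 and CCNB1, cyclin B1, by -0.35. The 23 DNA replication genes had 0 past 2-fold and a median of 0.11, or -0.08 with median centring, where all genes lay at -0.19.

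Of 13 immediate early genes, which respond within minutes to growth signals, 2 were at least 2-fold higher and 0 lower, with a median of 0.61. JUN read 8.57 in AlbuMAX and 6.68 in Albumin, 3.69-fold higher. FOSL1 was at least 1.83-fold higher by the bound, and FOS lay at -0.39. Of 31 growth factor and receptor genes 8 were at least 2-fold higher and 2 lower. PDGFB, a ligand of the platelet-derived growth factor receptors, was 3.42-fold higher, and the fibroblast growth factor FGF8 at least 2.17-fold lower on its brightest probe, while its other probe differed by -0.50.

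**Figure D3:**
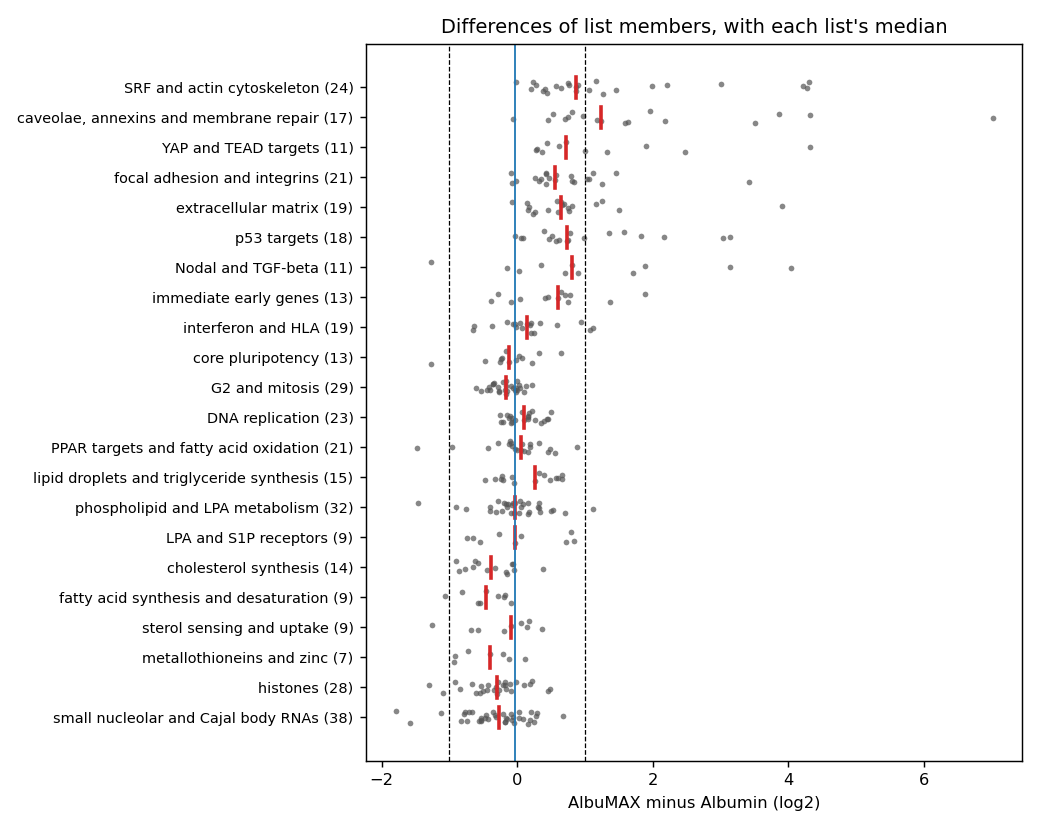
AlbuMAX minus Albumin (log2, x axis) for each gene (grey points) of 22 lists with their number of genes in brackets; red bars mark list medians, the blue line the median of all genes (-0.03) and the dashed lines 2-fold. The caveolae and annexin list has a median of 1.24, and the cholesterol and fatty acid synthesis lists lie at -0.38 and -0.46.

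Most genes of the cholesterol synthesis list were lower in AlbuMAX, by small amounts and on 1 array each. Of 14 that entered 13 lay below 0, 0 passed 2-fold, 5 were at least 1.5-fold lower against the background share of 6.45%, and the median was -0.38. AlbuMAX was the lowest of the 7 arrays for 10 of the 14, against 15.3% of all genes entered. The median ran from -0.55 to -0.26 over the settings of the values.

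HMGCS1, the enzyme that makes hydroxymethylglutaryl coenzyme A at the head of the pathway, read 12.07 in AlbuMAX and 12.92 in Albumin. The other arrays lay between 12.61 in LPA and 12.99 in hCDL, so AlbuMAX was 0.54 below the next. ACAT2, which joins acetyl coenzyme A units, read 11.17 in AlbuMAX and 11.79 to 11.94 on the other 6 arrays, a range of the other media much narrower than their distance from AlbuMAX. FDPS, farnesyl diphosphate synthase, differed by -0.77, TM7SF2, a sterol reductase, by -0.63 and MSMO1, a methylsterol oxidase, by -0.58. MSMO1 had 3 probes, which differed in sign. MVK, mevalonate kinase, was not above background in AlbuMAX and at least 1.36-fold lower. LSS, NSDHL and SC5D lay close to 0, at -0.08, -0.05 and -0.06, and PMVK and MVD at -0.16 and -0.14. LPIN1, which is also on the list of lipid droplets and triglyceride synthesis, lay at -0.33. The 1 gene above 0 was HSD17B7 at 0.39.

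INSIG1, the sterol sensor of the endoplasmic reticulum that SREBP itself induces, had the largest difference of the sterol genes. It read 9.40 in AlbuMAX and 10.65 in Albumin, with 10.67 in E8, 10.58 in CDL, 10.64 in hCDL, 10.11 in LPA and 10.24 in LPA + Albumin. The 2 LPA arrays lay below E8, CDL, hCDL and Albumin, and AlbuMAX lay 0.71 below the lower of them. The difference of -1.25 was -0.83 on the gene's other probe. Of 9 genes of sterol sensing and uptake INSIG1 was the 1 past 2-fold, and the median was -0.09. MYLIP, a ubiquitin ligase that degrades lipoprotein receptors and is a target of LXR, differed by -0.68, and NPC1, which exports cholesterol from lysosomes, by 0.37. Among 8 LXR targets 7 lay below 0 with a median of -0.17, and ABCA1, the cholesterol exporter, differed by -0.02.

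All 9 genes of fatty acid synthesis and desaturation lay below 0, with a median of -0.46, and AlbuMAX was the lowest array for 7 of them. ACSS2, which makes acetyl coenzyme A from acetate, read 9.16 in AlbuMAX and 10.22 in Albumin, and 10.04 to 10.57 on the other arrays. It was the 1 gene of the list past 2-fold, at -1.07 and at -1.29 on its second probe. AlbuMAX lay 0.88 below the next array. FASN, fatty acid synthase, read 12.52 in AlbuMAX, 13.08 in Albumin and 12.86 to 13.29 elsewhere. SCD, the desaturase that makes oleate, read 12.87 in AlbuMAX and 13.31 to 13.40 on the other 6 arrays. FADS1, a desaturase of polyunsaturated fatty acids, differed by -0.58, and FADS2, not above background in AlbuMAX, was at least 1.30-fold lower. ACACA, acetyl coenzyme A carboxylase, differed by -0.28.

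**Figure D4:**
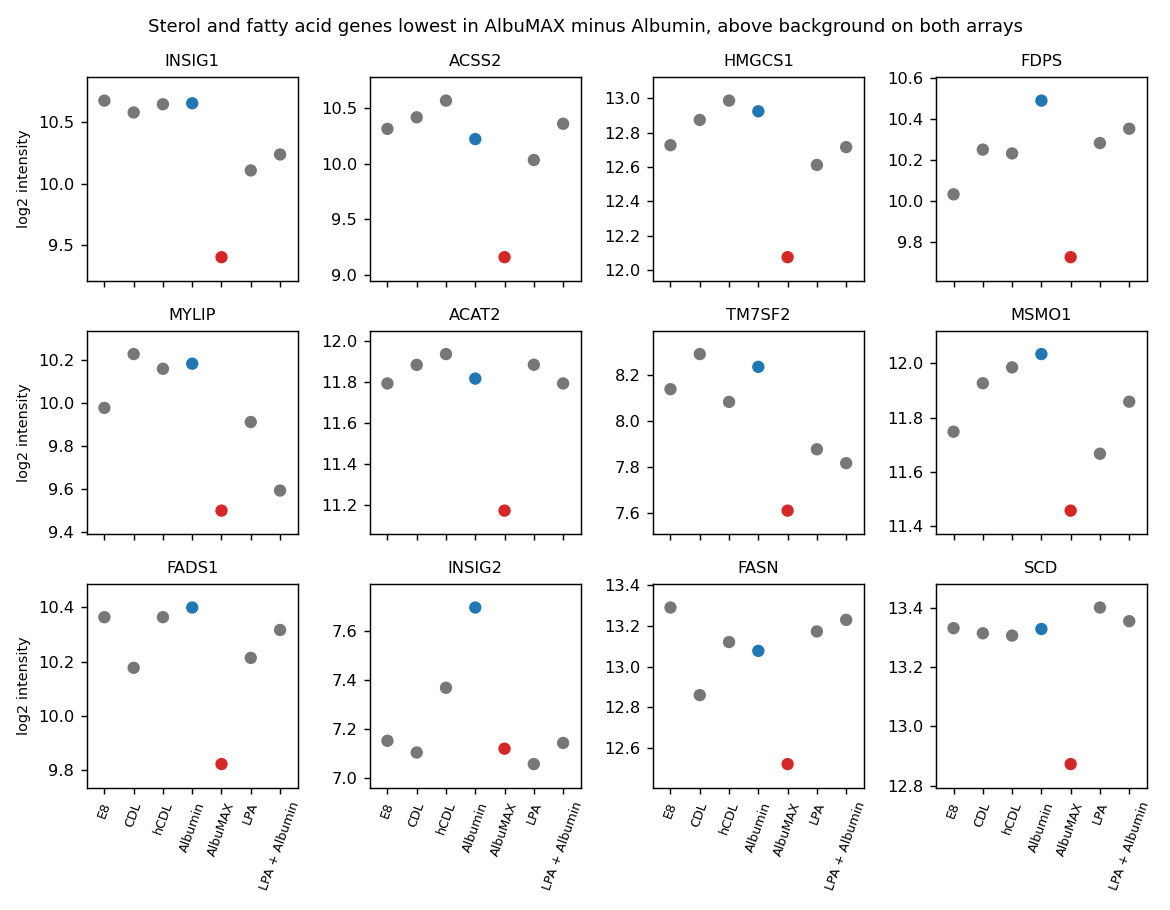
Log2 normalized intensity on each of the 7 arrays for the 12 sterol and fatty acid genes with the lowest AlbuMAX minus Albumin among those above background on both; points are single arrays, AlbuMAX in red and Albumin in blue, on y axes that differ and do not start at 0. AlbuMAX is the lowest array in every panel but INSIG2, for which Albumin is the highest.

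Together the lists of cholesterol synthesis, fatty acid synthesis and sterol sensing held 32 genes, of which 27 lay below 0. In differences that use neither array the cholesterol list had a median of 0.12 in CDL minus E8 and 0.12 in hCDL minus E8, and the fatty acid list of 0.01 in LPA minus E8 and 0.01 in CDL minus E8. AlbuMAX minus E8 shares the AlbuMAX array and gave -0.33 and -0.47 for these lists. LPA + Albumin minus Albumin shares the Albumin array and gave -0.04 and 0.04. The 9-base sterol element TCACNCCAC was searched in the same 250-base windows on both strands. It was present in 239 of 27305 promoters (0.875%), in 0 of 13 promoters of the cholesterol list, 0 of 8 of the sterol sensing list and 0 of 8 of the fatty acid list, which says only that these letters are not in these windows.

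Other lipid genes split. PLA2G3, a secreted phospholipase, read 7.76 in AlbuMAX, 9.07 in Albumin, 8.92 in LPA, 8.49 in LPA + Albumin and 9.09 to 9.26 in E8, CDL and hCDL, so AlbuMAX lay 0.73 below the next array and -1.31 from Albumin. LIPG, endothelial lipase, read 7.41 in AlbuMAX and 8.34 in Albumin and was 0.56 below the next array. FABP7, a fatty acid binding protein of neural progenitors, read 5.37 in AlbuMAX and 6.85 in Albumin, but 5.38 and 5.47 on the LPA arrays. FABP5, another member of that family, read 12.39 in AlbuMAX and 11.51 in Albumin, and AlbuMAX was the highest array. SPTSSB, a small subunit of serine palmitoyltransferase in sphingolipid synthesis, was 2.75-fold lower, and ACSL1, which activates fatty acids, differed by -0.63.

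Genes of lipid droplets and triglyceride synthesis had 0 of 15 past 2-fold and a median of 0.26. PLIN2, a coat protein of lipid droplets, read 10.56 in AlbuMAX, 10.07 in Albumin, 10.28 in CDL, 10.42 in hCDL and 9.97 to 10.11 in E8, LPA and LPA + Albumin. AlbuMAX was highest, by less than the distance between the other media. PLIN3 differed by 0.57. Of 21 PPAR targets and genes of fatty acid oxidation 0 were at least 2-fold higher, 1 lower (FABP7), and the median was 0.05. With median centring it was -0.16, where all genes lay at -0.19. Of 9 receptors of LPA and sphingosine 1-phosphate 0 passed 2-fold. LPAR1 differed by -0.02, LPAR2 by -0.65, LPAR3 by 0.06 and LPAR4 by -0.74. LPAR6 was above background only in AlbuMAX, and LPAR5 had no named probe, so its level was not read.

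Metallothioneins hold zinc and copper, and zinc induces their genes. Of 7 genes in their list 0 passed 2-fold, 6 lay below 0 and the median was -0.40. MT1G read 8.62 in AlbuMAX, 9.54 in Albumin and 8.17 in LPA + Albumin, against 11.29 to 11.51 in the 4 media without an albumin. The 3 media with an albumin were thus well below the other 4, and the pair differed by -0.92. MT1X differed by -0.40 and MT2A by -0.20. Here too the paralogs are near-copies, and cross-reading between probes was not tested. TXNIP, a glucose-responsive inhibitor of thioredoxin, read 9.47 in AlbuMAX, 8.91 in Albumin, 9.21 in LPA + Albumin and 6.11 to 7.97 in the 4 media without an albumin. The media with an albumin thus lay together there too, but above the other 4, opposite to MT1G.

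The remaining lower genes were mostly dim. Markers of neuroectoderm went both ways: of 9 entered, NES (1.37) and MAP2 (1.33) were at least 2-fold higher and EBF2 and RTN1 lower, with a median of 0.19. EBF2, a transcription factor of neural and mesenchymal cells, was not above background in AlbuMAX and at least 3.98-fold lower than in Albumin. NPTX1, neuronal pentraxin, read 6.29 in AlbuMAX, 7.99 in Albumin, 6.23 in LPA + Albumin and 6.73 in LPA, a 3.23-fold difference. E8, CDL and hCDL read 7.22, 7.11 and 8.01. KAT7, a histone acetyltransferase, was 2.37-fold lower, the neural gene JAKMIP2 2.51-fold and LMO3 2.22-fold. CCNG2, cyclin G2, differed by -1.30 on its brightest probe, but its 3 probes differed in sign.

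A list of small RNAs held mostly small nucleolar and Cajal body RNAs, which guide RNA modification. It also held small RNAs of other kinds, such as RNU11, RNU4-1, RNU6-1 and RPPH1. Its members lay below 0 in 28 of 38 cases, with 3 at least 2-fold lower, 0 higher and a median of -0.26. SCARNA8 was 2.99-fold lower and SCARNA23 at least 2.15-fold. Of 28 histone genes 23 lay below 0, 2 were at least 2-fold lower and the median was -0.29. H2BC9 was 2.13-fold lower and H2BC4 at least 2.35-fold. Over all genes 1.01% were at least 2-fold lower, with a median of -0.03. Zinc finger genes lay below 0 in 17 of 22 cases, with a median of -0.29, so the drift was not particular to these lists. Of 99 small RNAs with a named probe, 36 were above background in Albumin and 31 in AlbuMAX, and of 81 histones 28 and 24. Over all probes the shares also leaned to Albumin, at 37.2% against 35.4%, so these counts are not read as a result about the lists. The ribosomal RNA gene RNA18SN5 read 10.75 in AlbuMAX, the highest array, and 9.46 in Albumin, the lowest. Lists of large housekeeping complexes, drawn up by gene symbol, had 0 genes past 2-fold. They held 75 entries for cytosolic ribosomal proteins (median -0.06), 73 for the respiratory chain (-0.07), 77 for the mitochondrial ribosome (-0.02) and 32 for the proteasome (-0.14). A few entries, such as SDHAP1, MRPL20-AS1 and PSMC3IP, match by symbol but are not parts of these complexes.

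The position of AlbuMAX among all 7 arrays differed between the higher and the lower genes. Of the 228 higher genes, 201 (88.2%) had AlbuMAX and both LPA arrays above the other 4, against 15.5% of all genes entered. AlbuMAX was the highest array for 62 (27.2%, against 12.3% of all genes), and Albumin the lowest for 77 (33.8%, against 12.1%). Of the 75 lower genes, 46 (61.3%) had AlbuMAX and both LPA arrays below the other 4, against 17.7% of all genes. AlbuMAX was the lowest array for 46 (61.3%, against 15.3%) and Albumin the highest for 43 (57.3%, against 16.9%). Being higher or lower in the pair favours these positions by itself, since the pair is part of the ordering.

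Without an LPA array on the same side, AlbuMAX lay above the 4 other media for 12 higher genes and below them for 10 lower genes. The first were 5.26% of the higher genes, near the 5.38% among all genes, and the second 13.3% of the lower genes, against 5.52% of all. Of these higher genes FOXR1, at least 1.83-fold higher than in Albumin, and SLC9B2 were above background only in AlbuMAX. The bound for SLC9B2 was 0.39 on the log2 scale, short of 2-fold. Genes entered by signal on the brighter array, so signal in AlbuMAX alone is no separate result. AlbuMAX also lay well above all 6 other arrays for APOBEC3F, a cytidine deaminase of innate immunity, which read 6.97 in AlbuMAX and 5.19 to 5.93 on the other 6 arrays. ABHD12B, a hydrolase, read 8.66 in AlbuMAX, 8.02 in LPA + Albumin, 7.24 in LPA and 6.25 to 6.84 elsewhere. Among genes with AlbuMAX at least 0.5 below the other 6 arrays were ACSS2, PLA2G3, INSIG1, FADS2, MVK, ACAT2, LIPG and HMGCS1, with PCYT1B, which makes the activated choline of phosphatidylcholine, beside genes of other kinds such as NPY5R, IGFBP1 and ADD2.

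LPA minus E8 shares no array with the pair and was set beside it. Over 6979 genes in both, the differences had a Pearson correlation of 0.701 and a Spearman correlation of 0.529, across genes, which are not independent replicates. Of the genes at least 2-fold higher, 105 were common to both, which is 46.1% of the 228 in the pair and 70.0% of the 150 in LPA, and 2.08% of all genes were 2-fold higher in LPA. Of the lower genes 7 were common, 9.33% of the 75 and 15.6% of the 45, where 0.625% of all genes were 2-fold lower in LPA. The median of LPA minus E8 was 0.95 over the genes higher in AlbuMAX and -0.44 over those lower, against -0.01 over all.

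The correlations of the lipid mixtures lay near 0 or slightly below. CDL minus E8 had a Pearson correlation of -0.03 (Spearman -0.01) with the pair over 6933 genes, and hCDL minus E8 one of -0.11 (Spearman -0.11) over 7003. CDL shared 2 higher and 2 lower genes with the pair, 0.877% and 2.67% of the pair's genes and 5.26% and 7.14% of CDL's, and hCDL shared 0 and 0. Of all genes 0.53% and 0.391% passed 2-fold in CDL, higher and lower. Of the genes higher in the pair, 6 were 2-fold lower in CDL and 3 in hCDL. These differences share the E8 array with one another and with LPA minus E8, and are given as descriptions without a test.

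**Figure D5:**
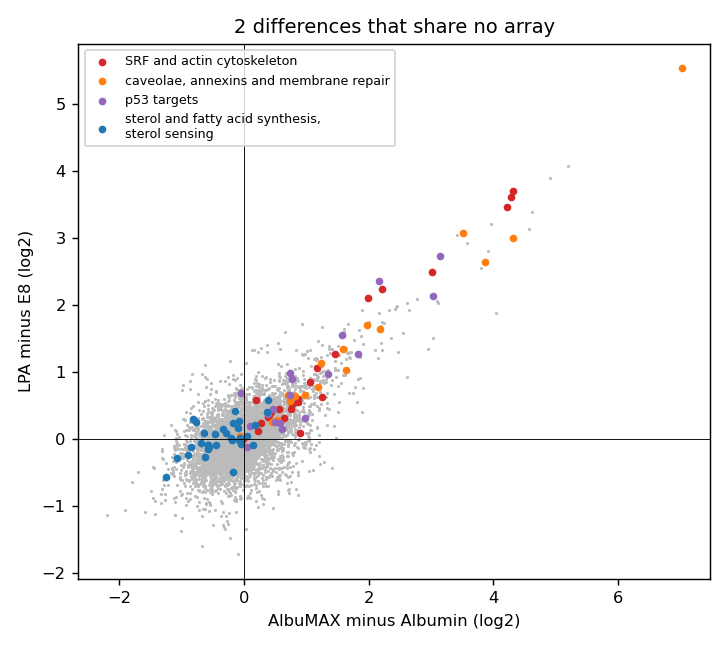
Each point is a gene, with AlbuMAX minus Albumin (log2) on the x axis and LPA minus E8 (log2) on the y axis, differences that share no array. The actin, annexin and p53 genes lie along a rising diagonal up to ANXA1, while the sterol and fatty acid genes spread to the left of 0 near a y value of 0.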

How the data were processed

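Per the file headers, the deposited values are 1 intensity, not normalized, and 1 detection p-value for each of 33866 probes on each of 7 arrays. The sources used here do not name the software. A second table holds the authors' processed intensity values. Per the labels, RNA was isolated with a column kit and converted to biotin-labelled cRNA.

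Intensities were background-corrected (normexp from the detection p-values, offset 16), quantile normalized over all 7 arrays and log2 transformed (neqc, limma 3.58.1, R 4.3.3). Detection p-values came in steps of 1 in 770. Platform annotation gave 1 symbol to 19221 probes, several to 3 and none to 14642; 19194 were matched to RefSeq by Entrez identifier, which changed 0 symbols. The brightest probe above background (detection p-value under 0.01) stood for a gene. With 1 array per medium no test was run, and precision is limited by the number of arrays. The steps were also run on simulated data with large known changes in probes well above background. That run does not cover changes in dim genes or changes near 2-fold.

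Named are the 25 largest differences in each direction past 2-fold, the 6 members of each list (or fewer) that differed most, and a fixed set (POU5F1, NANOG, SOX2, HMGCS1, INSIG1, SCD, TXNIP, LPAR1 to LPAR6, MT1X, MT2A, ACTA2, CAV1 and CDKN1A). Other genes, named as further list members or for their position among the arrays, were chosen after their values were seen, and some genes of the rule are left out for length. The comparison and the gene lists were chosen with earlier results of these data known.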

Additional observations from a re-analysis of the deposited data

Results flagged for a closer look

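Probes without a gene symbol in the annotation used here entered no comparison of genes, yet some differed as far as named genes did. Of 3593 such probes above background on the brighter of the AlbuMAX and Albumin arrays, 61 (1.70%) were at least 2-fold higher in AlbuMAX and 42 (1.17%) at least 2-fold lower, from -1.77 to 4.73 on the log2 scale. They are singled out because they lie outside the named genes. No medium was a control for them, and their difference was not tested.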

How the results depend on the processing

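The counts at 2-fold, 228 higher and 75 lower in AlbuMAX, depended on how dim signal was treated. They were 86 and 4 without background correction, 86 and 5 in the submitters' processed table, 116 and 14 with an offset of 50, and 150 and 35 for genes above background on both arrays. At 1.5-fold they were 617 and 479. With the fold of genes dim on one side taken as a bound, an alternative chosen after seeing the data, 193 were higher and 43 lower. Cyclic loess (245 and 64), median centring (176 and 111), the pair normalized alone (227 and 71), the mean of a gene's probes (210 and 68) and no detection filter (228 and 75) stayed within 1.5 times of these counts. The fewer genes with both sides above background follow from the filter; for the other settings the cause was not tested.

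All 102 named genes past 2-fold kept their sign under each of the 8 settings of the values, the reported one included, as did 299 of all 313. Every setting uses the same arrays, and the 102 genes were chosen for large differences on them, so kept signs were likely beforehand. The sizes of the differences were less stable: 67 of the 102 moved by over 1.5-fold under at least 1 setting. Under every setting 49 stayed past 2-fold. On the log2 scale CD44 ranged from 1.80 to 3.49, ACTA2 from 1.73 to 3.05 and TWIST1 from 2.84 to 4.98, and IGFBP7, at 3.95 as reported, was as low as 2.41. The 2 sterol and fatty acid synthesis lists stayed below 0 throughout, from -0.55 to -0.26 and from -0.63 to -0.27. No paired analysis was possible because each medium has 1 array. Signal near background limits what can be said of dim genes.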
